A study of Mus musculus with 8 samples.

Results

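AP-1 is a family of dimeric transcription factors, and its members were measured in cultured fibroblasts from the skin of mice with or without a mutation of the mitochondrial gene Nd2. The members asked for were Fos, Fosb, Fosl1, Fosl2, Jun, Junb, Jund, Atf3, Maff and Batf3, and every row of the normalized table whose gene symbol is one of these 10 names was taken. The rule found 6 of the 10 genes, namely Fos, Fosb, Jun, Junb, Atf3 and Maff, on 7 of the 25697 rows (probes) of the table. Fosl1, Fosl2 and Batf3 were not analysed here. Jund stands in the table under its older symbol Jund1, so that the rule does not take it, and its values are given beside those of the members without being counted with them.

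Cultured skin fibroblasts of 8 mice of 12 months of age were hybridised to MouseRef-8 v2.0 bead arrays, 1 array per mouse. The Nd2-mutant strain C57BL/6J-mtALR/LtJ was represented by the males 28 and 32 and the females 34 and 35, and the control strain C57BL/6J-mtAKR/J by the males 16 and 17 and the females 15 and 37. Both strains are conplastic, that is, they carry the nuclear genome of C57BL/6J with the mitochondrial DNA of a donor strain, ALR/LtJ or AKR/J. The mutant is described as differing by a single leucine to methionine exchange in Nd2, a subunit of complex I of the respiratory chain, so the control is itself a strain with foreign mitochondrial DNA and not plain C57BL/6J. No cells were treated with any agent for these arrays, as far as the labels say. The labels do not state whether each culture was harvested on a day of its own.

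Fos proteins and Jun proteins pair through leucine zippers and bind DNA as Fos-Jun or Jun-Jun dimers, whereas Fos proteins do not pair with each other. Fos, Fosb, Jun, Junb and Atf3 are immediate early or early stress genes: in fibroblasts their transcripts appear within minutes of serum, growth factor or stress signals, are switched on by factors already present such as SRF and CREB, and decay quickly. Atf3 binds CRE-like sites and pairs with Jun proteins, and Maff is a small Maf protein without an activation domain of its own. AP-1 drives genes of matrix breakdown, cytokines and growth factors, which is why it is often studied in ageing and senescent fibroblasts.

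The start regions of Fos, Fosb, Junb and Atf3 are printed. In these 4 members the strain difference differed between the sexes at an unadjusted p under 0.05, as given below. CRE-like letters recur in them but are not particular to them. Regions of Maff, not printed, hold such letters too, and its interaction of strain and sex was -0.03. Whether these letters bear on the values was not tested. Each stretch runs from 250 bases before to 50 bases after the start of the gene in the RefSeq table of GRCm38.p6, 5′ to 3′ on the strand of the gene. Capitals mark TGACG, the shared start of CRE and CRE-like sites, in Fos, Fosb and Junb, and the CRE variant TGACGTAA, read on the opposite strand, in Atf3. The regions are chr12:85473640-85473939 (plus strand) for Fos, chr7:19309996-19310295 (minus strand) for Fosb, chr8:84978699-84978998 (minus strand) for Junb and chr1:191183284-191183583 (minus strand) for Atf3.
Fos: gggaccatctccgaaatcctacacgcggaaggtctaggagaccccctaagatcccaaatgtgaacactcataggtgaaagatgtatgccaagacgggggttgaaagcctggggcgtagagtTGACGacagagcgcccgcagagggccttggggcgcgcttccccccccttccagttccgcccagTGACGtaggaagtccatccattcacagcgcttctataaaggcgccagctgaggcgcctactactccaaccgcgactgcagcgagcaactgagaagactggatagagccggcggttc
Fosb: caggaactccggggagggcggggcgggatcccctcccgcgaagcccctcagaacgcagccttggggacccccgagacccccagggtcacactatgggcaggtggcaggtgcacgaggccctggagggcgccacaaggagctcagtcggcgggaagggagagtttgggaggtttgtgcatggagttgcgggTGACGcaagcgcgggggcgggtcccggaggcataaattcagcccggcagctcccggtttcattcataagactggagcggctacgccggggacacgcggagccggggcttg
Junb: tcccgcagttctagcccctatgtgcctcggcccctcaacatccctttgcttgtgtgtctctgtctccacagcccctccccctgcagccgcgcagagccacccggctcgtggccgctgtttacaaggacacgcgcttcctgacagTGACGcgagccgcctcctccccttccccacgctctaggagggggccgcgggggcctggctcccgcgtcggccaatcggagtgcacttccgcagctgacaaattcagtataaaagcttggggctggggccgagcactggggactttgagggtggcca
Atf3: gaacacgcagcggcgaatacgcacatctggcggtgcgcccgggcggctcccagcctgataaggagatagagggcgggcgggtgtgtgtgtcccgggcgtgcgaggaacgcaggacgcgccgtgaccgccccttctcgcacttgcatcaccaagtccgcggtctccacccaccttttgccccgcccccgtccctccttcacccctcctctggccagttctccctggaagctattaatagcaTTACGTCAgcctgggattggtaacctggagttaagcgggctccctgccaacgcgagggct

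The promoter table held 9 of the 10 members with 11 start regions, all but Fosl1. Letters were searched on both strands. TGACG, which was chosen after these regions had been read, occurred in 6 of the 11 regions, those of Fos, Fosb, Junb and Atf3 and 2 of Maff, and in 20.8% of all 32851 regions of this length. In Fos it began at positions -129 and -66 from the start, in Fosb at -60 and in Junb at -106. The full CRE, TGACGTCA, which contains TGACG, was present in 1 region, of Maff at -29, and in 1.79% of all regions. The variant TGACGTAA, also containing TGACG, was present in that of Atf3 at -10 and in 0.499% of all regions. The AP-1 site itself, TGANTCA, was found in 0 of the 11 regions and in 7.81% of all regions, and the letters CCATATTAG, with which the serum response element of Fos begins, in 0 of the 11 and in 0.103% of all. These are matches of exact letters in a short window, from 250 bases before to 50 bases after the start. A count of 0 thus says nothing of sites farther upstream or of sites with other letters. No binding was measured.

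All 10 fibroblast marker genes, among them Col1a1, Pdgfra and Thy1, were detected on the arrays, and their summed intensity ranged from 30170 to 43477. Ptprc, the common marker of blood cells, was detected on 0 of 8 arrays, but the 9 macrophage genes summed to 1564 in mutant mouse 35 and to between 242 and 583 in the other mice. Keratinocyte genes, of which 5 of 6 were detected on at least 1 array and Krt1 on none, summed to 198 and 214 in the mutant females and to between 304 and 1166 in the other 6 mice. Endothelial genes summed to between 57.6 and 236, melanocyte genes to between 2.77 and 18.2, and genes of smooth muscle cells and pericytes to between 11010 and 14685. Most of this last sum was Acta2, at 10063 to 13935. Of the others, Tagln, Myh11 and Des were detected on 8 of 8 arrays, and Cnn1 and Rgs5 on 0 of 8. The number of probes detected at a detection p-value under 0.01 was between 10663 and 11350 per array. Control mouse 15 stood somewhat apart: its array correlated with the others at a mean of 0.934, compared with 0.963 to 0.974 for the other 7. In cultures measured as a whole, fewer expressing cells and less RNA per cell cannot be told apart.

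Intensities are on the linear scale after the authors' normalization. For the tests, values were floored at 0, 16 was added and the log2 was taken, and only probes with a detection p-value under 0.01 in every mouse of either strain were kept. This left 10414 probes, 6 of them of AP-1 members. The second Maff probe, ILMN_2629354, was detected on 0 of 8 arrays, with intensities from -5.65 to 1.22, and was not tested. Atf3 passed through the control arrays alone, since it was not detected in mutant mouse 34. Log2 differences are given as Nd2-mutant minus control from limma, with p-values adjusted by the Benjamini-Hochberg method over the whole set of tested probes, and levels of different probes cannot be set against each other.

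**Figure D1:**
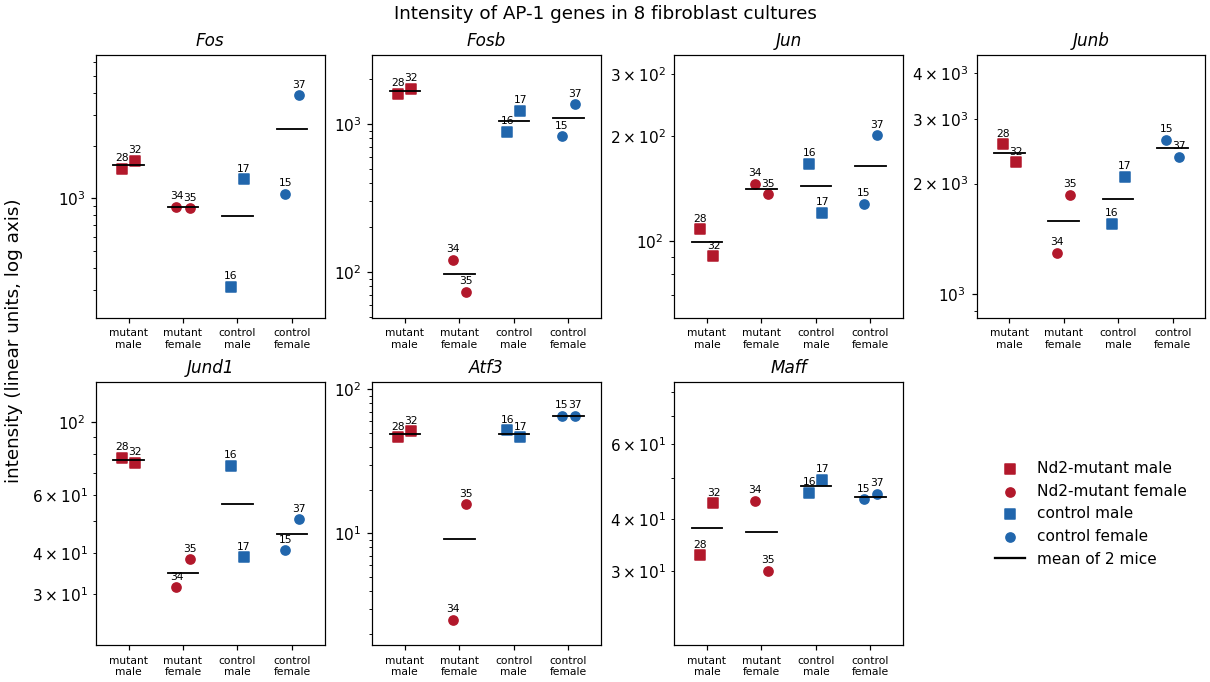
Intensity (vertical, linear units on a log axis) of the 6 tested AP-1 probes and of Jund1 in each of the 8 cultures, with a point for each mouse, labelled by its number, and a line for the mean of the 2 mice of a strain and sex. The 2 Nd2-mutant females lie far below the other 6 mice for Fosb and Atf3, and Fos spans 310 to 3896 among the controls alone.

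Between the strains, no AP-1 gene differed at an adjusted p under 0.05, and the same was true of every tested probe (0% called, smallest adjusted p = 0.639). At an unadjusted p under 0.05, 1 of the 6 members was called, Atf3, lower in Nd2-mutant fibroblasts, where 7.63% of all tested probes were called. Atf3 passed the filter through the controls alone, in which it was higher. With only probes detected on all 8 arrays it was not tested, and the count was 0. The median log2 difference of the 6 was -0.27 and that of all tested probes 0.00, with 5 members negative and Fos positive. Maff was the only 1 of the 6 whose values did not overlap between the strains, compared with 4.37% of all tested probes. The Fos family, the Jun family and the partners are taken in turn.

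Fos, the partner that lends its name to the family, had intensities of 1476 and 1642 in the mutant males, 897 and 874 in the mutant females, 310 and 1282 in the control males and 1062 and 3896 in the control females. The lowest and the highest of the 8 values both belonged to control mice, and the 4 mutant values lay between them. The mutant mean was 1222 ± 395 (SD, n = 4) and the control mean 1638 ± 1562 (SD, n = 4). The log2 difference was 0.04 (standard error 0.60, adjusted p = 0.986), with a 95% interval from -1.28 to 1.36, so that a change of more than 2-fold in either direction lies inside the interval. Its sign rested on single cultures: without control mouse 16 the difference was -0.57, and without control mouse 37 it was 0.63.

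Fosb, which like Fos pairs with Jun proteins and is known for a short, long-lived splice form, showed the largest contrast among the members. Its intensity was 1598 and 1720 in the mutant males but 121 and 73.8 in the mutant females, with 884 and 1224 in the control males and 827 and 1359 in the control females. The mutant strain thus held both the 2 highest and the 2 lowest values, which lay outside the range of the 4 controls on either side. The means were 878 ± 903 (SD, n = 4) and 1073 ± 259 (SD, n = 4). The strain difference of -1.31 (standard error 0.88, adjusted p = 0.685) was smaller than the spread between the mutant mice, and turned to 0.65 when both mutant females were left out, a choice made after seeing the data.

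Jun, the main activating partner of Fos, was detected on 8 of 8 arrays at a low intensity. It measured 108 and 90.2 in the mutant males, 146 and 136 in the mutant females, 166 and 120 in the control males and 127 and 201 in the control females. The mutant males gave the 2 lowest values of the 8, yet the strains overlapped. The difference was -0.31 (standard error 0.20, adjusted p = 0.671).

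Junb, a Jun protein that can restrain Jun, measured 2559 and 2286 in the mutant males, 1293 and 1862 in the mutant females, 1552 and 2089 in the control males and 2635 and 2362 in the control females. Mutant female 34 was the lowest and control female 15 the highest of the 8, and the difference of -0.13 (standard error 0.24, adjusted p = 0.875) was within the spread of each strain. The probe of Jund1, whose product is usually made at a steady level in resting cells, gave 78.0 and 75.3 in the mutant males, 31.4 and 38.2 in the mutant females, 73.7 and 38.7 in the control males and 40.7 and 50.6 in the control females. Its difference was 0.06 (standard error 0.26, adjusted p = 0.951).

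Atf3, a stress-induced repressor that pairs with Jun proteins, measured 46.4 and 51.2 in the mutant males, 52.1 and 46.3 in the control males and 65.7 in both control females. In the mutant females it gave 15.9 in mouse 35 and 2.52, not above background, in mouse 34. Both mutant females thus lay below the other 6 mice, whereas the males of the strains overlapped. The strain difference was -0.88 (standard error 0.36, adjusted p = 0.639), and the exact permutation p was 0.0857, where 4 against 4 mice allow no p below 0.0286. It was -0.51 without mutant mouse 34 and -0.01 in males alone, and because mouse 34 was at background the size depends on the value added before log2.

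Maff, a small Maf protein, gave 32.8, 43.5, 44.2 and 30.1 in mutant mice 28, 32, 34 and 35, and 44.5, 46.0, 49.5 and 45.8 in control mice 15, 16, 17 and 37. The strains did not overlap, but the highest mutant and the lowest control value were 44.2 and 44.5, a gap far smaller than the spread within the mutants. The means were 37.6 ± 7.24 (SD, n = 4) and 46.5 ± 2.17 (SD, n = 4), with an exact permutation p of 0.0286, the smallest possible. The log2 difference was -0.23 (standard error 0.14, adjusted p = 0.664).

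**Figure D2:**
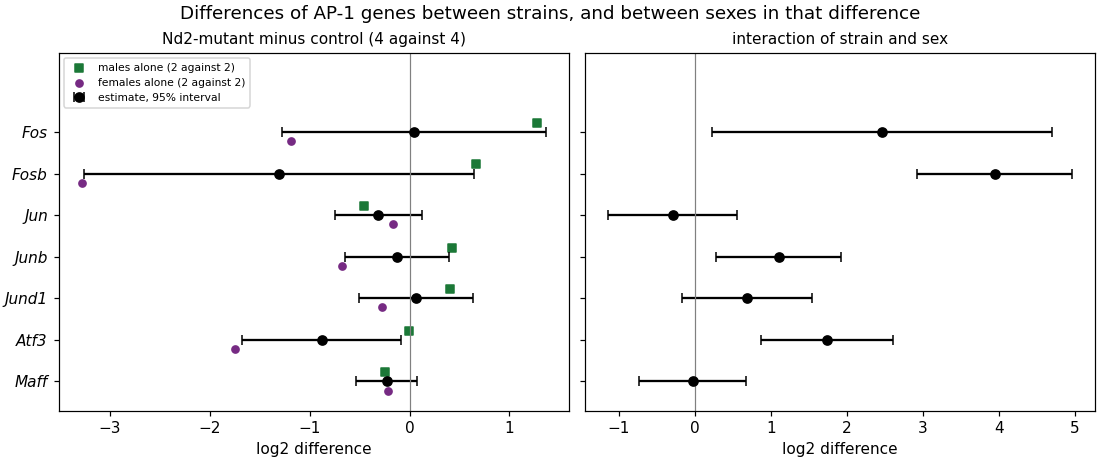
Log2 differences (horizontal) of the 6 tested AP-1 genes and Jund1: on the left Nd2-mutant minus control over 4 against 4 mice with its 95% interval (black) and the difference in males alone (green squares) and females alone (purple circles), on the right the interaction of strain and sex with its 95% interval. On the left only the interval of Atf3 excludes 0, and on the right the intervals of Fos, Fosb, Junb and Atf3 lie above 0 before adjustment.

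The strain difference pointed in opposite directions in the sexes for part of the family. In males alone Fosb was higher in the mutants by a log2 of 0.66 and in females alone it was lower, at -3.28. Fos also changed sign, with 1.27 in males and -1.19 in females. Unlike in Fosb, its extremes were controls, male 16 at 310 and female 37 at 3896. Junb changed sign too, with 0.42 and -0.68. Atf3 gave -0.01 and -1.75. Jun, with -0.46 and -0.17, and Maff, with -0.24 and -0.22, were lower in the mutants of both sexes.

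The interaction, (mutant male minus mutant female) minus (control male minus control female), tests this contrast with 2 mice in each of the 4 cells. An interaction for Fosb was already known from these data when the genes were chosen, so its value is a description of known data and not new evidence. Fosb had an interaction of 3.94 (standard error 0.44) with the second smallest p of the 10414 probes, and its adjusted p of 0.0794 missed the threshold. The adjusted p was 0.0443 when the variance was allowed to follow intensity and 0.0282 without control mouse 15, and in the other alternatives it stayed above 0.05. Those of Atf3, 1.74 (standard error 0.38), Junb, 1.10 (standard error 0.36), and Fos, 2.46 (standard error 0.98), had unadjusted p-values of 0.00158, 0.0141 and 0.0347, each with an adjusted p of 1.0.

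At an adjusted p under 0.05, 0 of the 6 members were called, and 0.0096% of all tested probes, which is Id1. At an unadjusted p under 0.05, 4 of the 6 were called, where 1.77% of all were, and all 4 were positive, where 0.951% of all were called positive. Atf3, which passed the filter through the controls alone, is among the 4. The count of 4 dropped to 2 without mutant mouse 28, mutant mouse 34 or control mouse 16. Jun had an interaction of -0.29 (standard error 0.37) and Maff of -0.03 (standard error 0.31), and neither passed the unadjusted threshold. For Fos the value rested on controls 16 and 37, and was 1.46 and 1.53 without each of them.

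Across all tested probes, 4.93% had both mutant females below the other 6 mice, and 2 of the 6 members did, Fosb and Atf3. Jund1 did so as well, but by 38.2 against 38.7. This order was not a planned comparison and was counted with the interaction of Fosb already known. Its counts, here and in the lists below, describe that pattern and are no independent support. Atf3 was tested through the controls alone, in which it was higher. When probes were ranked by the log2 gap between the higher mutant female and the lowest of the other 6, a measure chosen after the values had been seen, Fosb stood second with 2.62 and Atf3 eighth with 0.97. Id1, an inhibitor of bHLH factors that responds to BMP signals, stood first with 2.97. Between them stood Hey1, Axud1 (now Csrnp1), 1810011O10Rik, Id3 and Nfkbia, and 7 probes in all had a gap over 1. The ninth was Krt14, a keratin of basal keratinocytes, at 38.3 and 77.9 in the mutant females and from 166 to 1007 in the others, and its part in the AP-1 values was not tested. The low keratinocyte sum of these cultures came from Krt14, since Krt10, the other keratinocyte gene detected on all 8 arrays, was 150 and 131 in the mutant females and from 90.9 to 131 in the others. The macrophage genes summed to 391 in mouse 34 and to 1564 in mouse 35, and their part in the AP-1 values was not tested either.

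Between males and females, with strain as a term, 0 of the 6 members had an adjusted p under 0.05 (0.0192% of all tested probes did). At an unadjusted p under 0.05 it was 1 of 6, Fosb, against 8.31% of all. Fosb was higher in males by a log2 of 1.94 (standard error 0.67, adjusted p = 0.515), which the 2 mutant females carry, since the control sexes overlapped. With array weights, 2 members, Fosb and Jun, had adjusted p-values under 0.05.

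The members differed in how widely they varied over the 8 cultures. The standard deviation of log2 values was 1.66 for Fosb, more than for 99.96% of tested probes, 1.01 for Fos, more than for 99.6%, and 0.75 for Atf3, more than for 97.7%. For Junb it was 0.36, for Jun 0.32 and for Maff 0.18, beside a median of 0.27 over all tested probes. The highest Fosb value was 23.3 times the lowest, and the highest Fos value 12.6 times the lowest. In Fos that range came from the controls, which spanned 12.6-fold against 1.88-fold in the mutants, and in Fosb from the mutants, which spanned 23.3-fold against 1.64-fold in the controls.

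Co-variation was measured against Fos on the log2 scale over the 8 cultures, with exact permutation over pairings and adjustment over the 10413 other probes. Junb followed Fos with a Pearson r of 0.60 (exact permutation p = 0.124, adjusted p = 0.938) and a Spearman rho of 0.62 (exact permutation p = 0.115, adjusted p = 0.837). Its r was 0.63 without control mice 37 and 16, the 2 farthest from the median of Fos, and ranked 444 of all probes. The relation was thus not distinguishable from no relation at 8 cultures.

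Jun showed no linear relation with Fos over the 8 cultures, with r of 0.00 (exact permutation p = 0.999, adjusted p = 1.0) and rho of -0.31 (exact permutation p = 0.462, adjusted p = 0.979). Without mice 37 and 16 its r was -0.95. With single mice left out, r ranged from -0.89, without mouse 37, to 0.42, so its sign rested on single cultures. Control 37 held the highest value of both genes. Once it was set aside, after seeing the data, the order of Jun ran opposite to that of Fos, apart from the near-tie of mutants 34 and 35. For Maff r was 0.04 (exact permutation p = 0.911, adjusted p = 0.991) and rho 0.00 (exact permutation p = 1.0, adjusted p = 1.0), with r of 0.18 without the 2 farthest mice.

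The values of Fosb and Atf3 fell into separate clusters, with the mutant females apart, so no r over all 8 is given. Over the other 6 mice, a choice made after seeing the data, r with Fos was 0.62 for Fosb (exact permutation p = 0.201, adjusted p = 0.864) and 0.31 for Atf3 (exact permutation p = 0.557, adjusted p = 0.887). The corresponding rho was 0.77 for Fosb (exact permutation p = 0.103) and 0.14 for Atf3 (exact permutation p = 0.803). In the mutant females Fos, at 897 and 874, lay above control 16, whereas Fosb, at most 121, lay below all other mice.

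**Figure D3:**
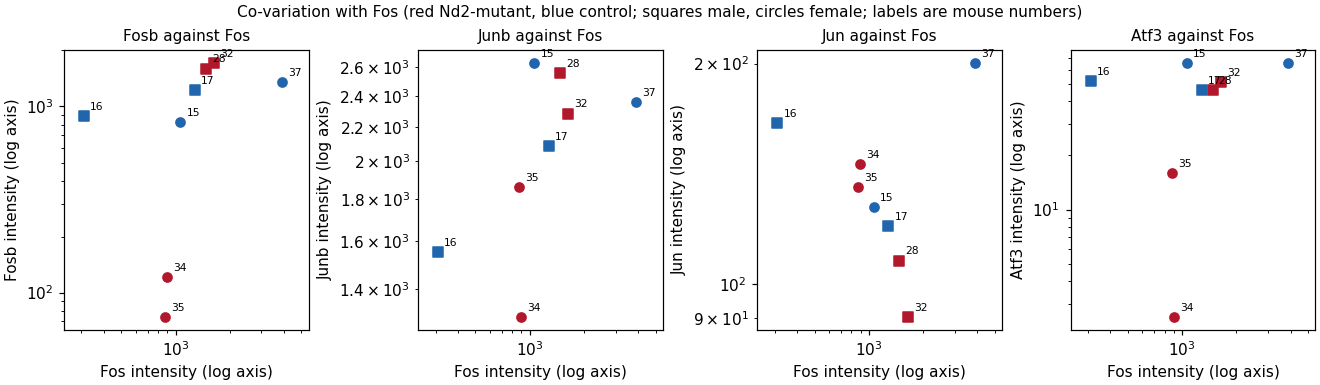
Intensity of Fosb, Junb, Jun and Atf3 (vertical, log axis) against that of Fos (horizontal, log axis) in the 8 cultures, red for Nd2-mutant, blue for control, squares for males, circles for females, labelled by mouse number. The mutant females 34 and 35 lie apart for Fosb and Atf3. Jun and Fos are both highest in control 37, and Jun declines with Fos in the other cultures, apart from the near-tie of 34 and 35. Over all 8 cultures the r of Jun with Fos was 0.00.

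Of the 10413 other probes, 0 had an adjusted p under 0.05 for Pearson's r with Fos, and 355 of the 10413 had an unadjusted p under 0.05. The probes with the highest r were those of Tm9sf2 (0.97), a membrane protein of the secretory pathway, Usp6nl (0.95), a regulator of Rab proteins, Cnot6l (0.94), a deadenylase that shortens mRNA tails, Dmtf1 (0.91), a transcription factor, and Psme4 (0.90), a proteasome activator. Without mice 37 and 16 the r of these 5 was between 0.54 and 0.89, so the likeness leaned on the highest and lowest Fos cultures. Of the 5, Psme4 kept 0.89, over a narrow range from 869 to 1157, while Dmtf1 varied from 14.0 to 20.5, near background. The lowest value of Tm9sf2, 3.71 in control 16, was not above background.

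Beyond the family, lists of related genes were counted. A list of other immediate early and early response genes had 28 of 41 members tested. Most answer serum, growth factor or stress signals as Fos does, but it also holds Id1, Id2 and Id3, which answer BMP signals, and the Notch target Hes1. Their median strain difference was -0.24, with 0 higher and 3 lower at an unadjusted p under 0.05, or 10.7%, next to the 7.63% of all tested probes. Srf, the factor that binds serum response elements, measured 448 ± 109 (SD, n = 4) in the mutants and 669 ± 113 (SD, n = 4) in the controls, at a log2 difference of -0.58 (standard error 0.20, adjusted p = 0.639). Dusp1, a phosphatase of MAP kinases, was at -0.81 (standard error 0.29, adjusted p = 0.639), and the third was Csrnp1, at -1.28. In all 3 genes both mutant females lay below all other mice, at most 1369 against at least 2286 for Dusp1, and 456 against 461 for Srf. On the higher side, Errfi1 (0.33) and Klf2 (0.04) had the smallest p-values, and both overlapped between the strains. This count rested on single mice, and was 0 without mutant 35 and 8 without mutant 32, and 12 in females alone.

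In the interaction, 9 of these 28 genes had an unadjusted p under 0.05, all positive, or 32.1%, where 1.77% of all tested probes were called and 0.951% called positive. Of the 9, 4 were Id1, Id2, Id3 and Hes1, and Id1 was known as the top gene when the list was drawn up. The median was 0.76, compared with -0.03 for all tested probes and 1.42 for the 6 AP-1 members. Leaving out any mouse gave 8 to 12 genes. Both mutant females were below the other 6 mice for 13 of the 28, the same 4 genes among them, where 4.93% of all tested probes had this order. Without control mouse 15 it was again 13 of 28, with 8.43% of all. The following were named after their values were seen. Csrnp1 was at most 182 in the mutant females and at least 668 in the others (interaction 2.96, standard error 0.41, adjusted p = 0.25). Nfkbia, the inhibitor of NF-κB, was at most 152 there and at least 353 in the others. Id3 was at most 116 there and at least 318 in the others, with adjusted p = 1.0 for both. Genes as typical as Egr1, with an interaction of 0.82 (standard error 0.50), and Socs3, with 0.06 (standard error 0.43), were not called.

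Of 30 AP-1 target genes, 22 were tested, with a median strain difference of -0.32. At an unadjusted p under 0.05, 5 were lower in the mutants and 0 higher, or 22.7%, beside 7.63% of all tested probes, and none had an adjusted p under 0.05. The list was drawn up with earlier results of these data known, so this share is a description and no independent support. Il6, the cytokine of the secretory phenotype of senescent cells, measured 77.0 ± 29.5 (SD, n = 4) in mutant and 133 ± 21.4 (SD, n = 4) in control fibroblasts, at -0.73 (standard error 0.23, adjusted p = 0.639). Plaur, the urokinase receptor, measured 92.7 ± 31.9 (SD, n = 4) and 151 ± 18.9 (SD, n = 4), at -0.66 (standard error 0.21, adjusted p = 0.639). The others were Cd44 (-0.53), the hyaluronan receptor, and the growth factor and cytokine genes Hbegf (-0.90) and Lif (-1.04). Lox, which crosslinks collagen, at 0.30, and the quinone reductase Nqo1, at 0.33, had the smallest p-values of the higher genes and were not called. The count was 3 without mutant mouse 35, control mouse 15 or both mutant females and with the methods' t-test, 2 in females alone and 1 in males alone.

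In the interaction the median of the target genes was -0.17, and 1 of 22, Hbegf, had an unadjusted p under 0.05 (interaction 1.37, standard error 0.58, adjusted p = 1.0), beside 1.77% of all tested probes. The count was 0 without mutant 32, control 16 or control 17, and 3 without mutant 28, 4 without control 15 and 5 without control 37. Hbegf, Lif, Vegfa and Mmp9 had both mutant females below the other mice, 4 of 22 or 18.2%, where 4.93% of all tested probes had this order. Without control mouse 15 it was again 4 of 22, with 8.43% of all. Of the lists taken up below, it was 2 of 15 bZIP genes and partners and 0 of 24 kinases and regulators. Il6 (-0.05) and Plaur (-0.16) had interactions near 0, with standard errors of 0.51 and 0.46, so that a sizeable difference between the sexes in either direction is not shut out at 2 mice per cell.

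**Figure D4:**
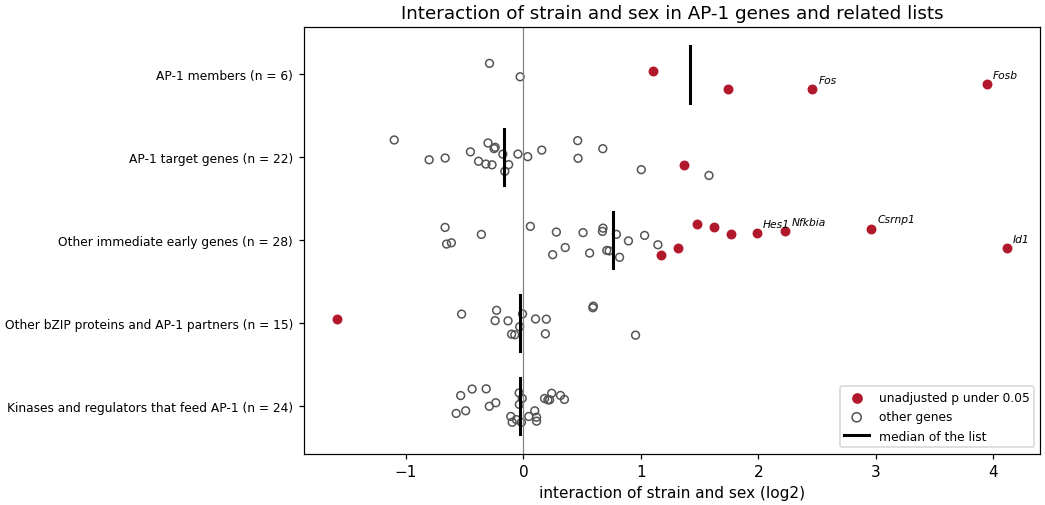
Interaction of strain and sex (horizontal, log2) of the 6 tested AP-1 members and of the tested genes of the 4 related lists, with a point per gene, red for an unadjusted p under 0.05 and open otherwise, and a bar at the median of each list. The medians are 1.42 for the members and 0.76 for other immediate early genes, and between -0.17 and -0.03 for the remaining lists.

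Other bZIP proteins and AP-1 partners had 15 of 24 genes tested, a median strain difference of -0.24, and 1 higher and 0 lower at an unadjusted p under 0.05, or 6.67%, near the 7.63% of all tested probes. The count was 0 with probes detected on all 8 arrays, 2 without mutant 32 or control 15, and 3 without control 17 or control 37. The higher gene was Atf7, an Atf2-related factor, at 19.0 ± 2.65 (SD, n = 4) and 11.4 ± 1.32 (SD, n = 4), detected on 5 of 8 arrays, so that it passed the filter through the mutants alone, in which it was higher, with 0.35 (standard error 0.13, adjusted p = 0.639). Nfe2l2 (0.29), the regulator of antioxidant genes, Mafk (-0.45), a small Maf protein like Maff, and Creb1 (-0.53), which binds CREs, were not called. In the interaction 1 of 15 was called, Ddit3 at -1.59 (standard error 0.47, adjusted p = 1.0), a stress factor whose sign was opposite to that of Fosb and Atf3. This count, beside 1.77% of all tested probes, was 3 without control 37.

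Kinases and regulators that feed AP-1 had 24 of 35 genes tested and a median strain difference of 0.03. At an unadjusted p under 0.05, 1 was higher and 0 were lower, or 4.17%, beside 7.63% of all tested probes. The count was 0 without mutant 34 and 3 without control 17 or control 37. The gene was Cops5, first described as a coactivator of Jun, with 795 ± 8.14 (SD, n = 4) in mutant and 603 ± 108 (SD, n = 4) in control fibroblasts, at 0.41 (standard error 0.15, adjusted p = 0.639). Elk3 (0.27), an SRF partner, Map2k2 (-0.25), a kinase upstream of ERK, and Mapk8 (-0.29), the kinase JNK1 that phosphorylates Jun, were not called. In the interaction 0 of 24 had an unadjusted p under 0.05, with a median of -0.03, and 1 without control 37.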

How the data were processed

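Total RNA of cultured skin fibroblasts was hybridised to 8 arrays. The authors extracted intensities in GenomeStudio, quantile normalized them between arrays and took off the background. The intensity values were deposited on a linear scale. The detection p-value beside each intensity was computed by the authors' software. Its place beside each array was checked: on 8 of 8 arrays it never rises with intensity. The 2 deposited tables hold the same normalized values, so other background corrections and normalizations were not run, and the arrays carry no chip name to use as a block.

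Negative values were raised to 0, and 16 was added before the log2. Probes detected (p under 0.01) on all 4 arrays of at least 1 strain were tested with limma 3.58.1 (lmFit, eBayes) in R 4.3.3 (2-sided, adjusted by Benjamini-Hochberg, threshold 0.05), and single probes also with an exact permutation test. The interaction was fitted on 4 cells of strain and sex, and the sexes were compared with strain as a term. Correlations used exact permutation of pairings (numpy 2.4.6). The fits of the strain difference and of the interaction, and the correlations, were tested on simulated data. Each array is of a different mouse, but litters and culture days are not given, and the number of arrays limits the precision.

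The members and lists were chosen with earlier results of these data known. Named were all members, the 5 probes with the highest r with Fos, Id1, and per list the 2 higher and 2 lower genes with the smallest p; other genes are named after their values were seen. The lists were recounted under the same alternatives. A gene with several tested probes is represented by the one with the highest mean. Alternatives were 1 or 50 added before log2, the linear scale, 3 other filters, a variance trend, array weights, sex as a term, the methods' t-test, each sex alone, and each mouse left out in turn; leaving out both mutant females was added after seeing the data. Promoter sequences are RefSeq's (GRCm38.p6). Of the lists, Csrnp1 and Hras were matched by the older symbols Axud1 and Hras1, and no row was found for 8 genes.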

Additional observations from a re-analysis of the deposited data

Results flagged for a closer look

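The strain difference of Id1 (ILMN_2672190), the inhibitor of bHLH factors set beside Fosb, differed between the sexes, with a log2 interaction of 4.12 (standard error 0.38, adjusted p = 0.0341 in limma). Its intensity was 126 and 86.1 in Nd2-mutant females 34 and 35 and between 1097 and 1932 in the other 6 mice. The adjusted p was 0.153 with 1 added before log2, 1.0 on the linear scale and 0.614 without a filter on detection. Leaving out single mice, it passed 0.05 without control 15 (0.0282) or control 37 (0.0135) but not without any of the other 6, where it lay between 0.155 and 0.421, with the interaction between 3.83 and 4.41 in all 8 fits. None of the 14 groups of 4 values (7 probes in each strain) held a mouse far from the other 3 by Dixon's test, where chance gives 0.7. The test looks for a single mouse apart from the rest. Females 34 and 35, low together for Fosb and Atf3, are not a pattern that it can flag.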

How the results depend on the processing

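No paired analysis was possible because no mouse number occurs in both strains. For the strain difference, the count of members with an unadjusted p under 0.05 (1 as reported) was 0 with 1 added before log2, on the linear scale, without a filter, with a filter on all 8 arrays and with the methods' t-test, 2 in females alone, and 0 to 2 without single mice. Over all tested probes, the count at an adjusted p under 0.05 (0 as reported) was 3 without a filter and 1 with the methods' t-test. At an unadjusted p it was 795, and 1587 without a filter, 502 in males alone, 317 in females alone, 457 without both mutant females, and from 432 (without control 16) to 1438 (without control 17) without single mice. The difference of Fos turned to -415 intensity units on the linear scale, -0.49 with array weights and -1.19 in females alone, that of Fosb to 0.66 in males alone and 0.65 without both mutant females, that of Junb to 0.42 and 0.19 in the same settings, and that of Jund1 to -0.28 in females alone. Without single mice these ranged from -0.57 to 0.63 for Fos, -0.28 to 0.0643 for Junb and -0.0904 to 0.24 for Jund1. In the interaction, 1 member was called at an adjusted p with a variance trend and 0 to 1 without single mice (Fosb, without control 15), and 2 to 4 at an unadjusted p; Jun ranged from -0.59 to 0.00892 and Maff from -0.22 to 0.16. In the comparison of the sexes, 2 members had an adjusted p under 0.05 with array weights; at an unadjusted p the count (1 as reported) was 4 with array weights, 0 on the linear scale and without a filter, and 0 to 2 without single mice. There Fos was 0.21 with array weights, and without single mice it ranged from -0.70 to 0.22, Junb from -0.13 to 0.28 and Maff from -0.0279 to 0.13. The correlation of Jun with Fos was -0.0123 with 1 added, -0.95 without the 2 farthest mice, -0.31 as rho, and from -0.89 to 0.42 without single mice. That of Maff was -0.11 without both mutant females and from -0.17 to 0.32 without single mice. The causes were not tested. Signal over background limits Atf3, Maff and Jund1, whose intensities were at most 78.0.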
